A study of Macrobrachium nipponense with 6 samples.

Results

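The miRNAs miR-100 and miR-125 were followed on arrays hybridised with RNA of Macrobrachium nipponense, the oriental river prawn, a decapod of fresh water. Their probes were chosen by name alone: every miRNA probe whose name after the species prefix was miR-100 or miR-125, in any case, with or without a suffix. The rule found 23 of the 2546 miRNA probes on the array, 17 named miR-100 and 6 named miR-125. The normoxia group was 3 samples of prawns held at 6.5 ± 0.2 mg O2 per L (titled 24 h as well), and the hypoxia group was 3 samples of prawns held for 24 h at 2.0 ± 0.1 mg O2 per L, a level reached by bubbling nitrogen. Every sample was RNA of gill, hepatopancreas, muscle and hemocytes together, labelled with Cy3 and hybridised to 1 array. The labels do not give the age or strain of the prawns, how many animals a sample held, or whether the samples are separate animals. All p-values therefore speak of the spread between these samples only. In such mixed tissue, fewer cells of a type and less RNA per cell cannot be told apart.

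In flies, miR-100, let-7 and miR-125 are cut from 1 shared transcript that the moulting hormone ecdysone switches on at metamorphosis. MiR-125 is the relative of lin-4, the first miRNA described, which times larval stages in the nematode Caenorhabditis elegans, and in flies it acts with let-7 on the timing of neuronal fates. MiR-100 belongs to the miR-10 and miR-99 family, among the oldest miRNAs of animals, and its mammalian copies act on the growth kinase mTOR. Whether the genes lie together in the prawn was not analysed here.

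A miRNA recognises its targets mainly through its seed, bases 2 to 8. Of the 17 miR-100 probes 13 held the seed of aae-miR-100, ACCCGUA, somewhere in their target, as did 1 other probe, tur-miR-5728-2-5p. The seed of dme-miR-125-5p, CCCUGAG, was held by 3 of the 6 miR-125 probes and by 4 others (ame-miR-3736, bmo-miR-3324, mja-mir-6490-p3 and tca-miR-12-3p). The other strand of the hairpin was the target of 3 miR-100 probes and 3 miR-125 probes, all named 3p. The 10 probes shown first repeat bases 2 to 21 of aae-miR-100 and differ only at the ends, so they are repeated readings of nearly the same target. Targets are given as the array files list them, 5′ to 3′, with the miR-100 seed in capitals.
aae-miR-100: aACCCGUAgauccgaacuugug
api-miR-100: gACCCGUAgauccgaacuugug
tca-miR-100-5p: aACCCGUAgauccgaacuuguggg
dpu-miR-100: aACCCGUAgauccgaacuugugu
dpu-miR-100_R-2: aACCCGUAgauccgaacuugu
aae-miR-100_L+2: gcaACCCGUAgauccgaacuugug
aga-miR-100_L+2R-1: uaaACCCGUAgauccgaacuugu
ame-miR-100_L+4: aacuaACCCGUAgauccgaacuugug
api-miR-100_L+3_1ss4GA: uacaACCCGUAgauccgaacuugug
cqu-miR-100-5p_L+3: gggaACCCGUAgauccgaacuugug

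A further 3 miR-100 probes differ from aae-miR-100 inside the sequence, and they are shown because their signals varied between arrays in another way than those of the first 10. The capitals mark the changed bases, counted from the 5′ end of aae-miR-100. The first carries G9A, the second G9A and A10U, and the third C3G and G9A, of which C3G lies in the seed.
dme-miR-100-5p: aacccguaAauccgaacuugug
dpe-miR-100: aacccguaAUuccgaacuugug
dan-miR-100_R-1_1ss3CG: aaGccguaAauccgaacuugu

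The 3 miR-125 probes for the guide strand differ only at their ends. The first carries U1C against dme-miR-125-5p and the second lacks its last base. The seed is in capitals.
ame-miR-125: cCCCUGAGacccuaacuuguga
aae-miR-125-5p_R-1: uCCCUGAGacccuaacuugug
dme-miR-125-5p: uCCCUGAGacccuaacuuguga

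For comparison the brightest probes of let-7 and of miR-10 are given, with their seeds in capitals. The miR-10 target is 4 edits from aae-miR-100, and the let-7 target is 13 edits from it. No probe on the array was named lin-4.
dme-let-7-5p: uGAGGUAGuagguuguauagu
tur-miR-10-5p: cACCCUGUagauccgaauuugu

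Signals are scanner intensities in arbitrary units, and empty spots read about 99.2 to 157 on the 6 arrays (medians). The detection limit of an array was its local background plus 3 times the standard deviation among empty spots, and between 341 and 1005 probes passed it on single arrays. Hypoxia 3 stood apart. In limma's estimate of array quality it had a weight of 0.17, beside 0.76 to 2.47 for the other 5, and results that it moves are also given without it. Calibration spots named 3M had a median signal, relative to spots named 3P, of 10.1% on hypoxia 1, 7.32% on hypoxia 2, 0.808% on hypoxia 3 and 1.46% to 2.89% in normoxia. The files do not say what 3M and 3P stand for. Muscle miRNAs were present, with 3 of 9 miR-1 and 2 of 6 miR-133 probes detected on all 3 arrays of a group. Of the miRNAs listed for nervous tissue, miR-124 had 0 of 8 probes that reached that, miR-9 had 12 of 39 and miR-7 had 3 of 8. Among all miRNA probes it was 338 of 2546.

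The guide strand of miR-100 was among the brightest signals on every array. The 10 probes of the same target ranked 8 to 30 in brightness among the 338 probes in the comparison, which were those that passed the limit on every array of normoxia, of hypoxia or of both. A brightness rank depends on how well each probe binds as well as on the amount of miRNA, so it is not an order of abundance. The median intensity of the 10 probes was 9804, 15816 and 13412 on normoxia 1, 2 and 3, and 13553, 8908 and 18315 on hypoxia 1, 2 and 3. The groups overlapped, and both the lowest and the highest median belonged to hypoxia. After background correction and quantile normalization, which gives all arrays the same distribution, the median of the 10 was 13.69 ± 0.0084 (log2 intensity, SD, n = 3) in normoxia and 13.69 ± 0.041 in hypoxia. It stayed between 13.64 and 13.72 on the 6 arrays. Quantile normalization gives equal ranks equal values, so this narrow range shows a stable rank rather than a stable amount.

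On some arrays the 10 readings of this one target agreed closely, and on others single spots fell far away. On normoxia 3 they ran from 12652 to 14090, on hypoxia 1 from 12541 to 14005 and on hypoxia 2 from 7762 to 9297. The brightest spot was thus 1.11, 1.12 and 1.2 times the dimmest after background subtraction. On normoxia 1 a pair of spots was low: dpu-miR-100 read 642 and cqu-miR-100-5p_L+3 read 478, while the other 8 lay between 8397 and 12391. On normoxia 2 only aae-miR-100 was low, at 2511, and the other 9 lay between 15440 and 16271. All 3 lay among the closely agreeing spots of normoxia 3, hypoxia 1 and hypoxia 2.

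Hypoxia 3 split the same 10 probes into a low and a high set. Of the low set, ame-miR-100_L+4 read 5511, aae-miR-100_L+2 read 7448, api-miR-100_L+3_1ss4GA read 7672 and aae-miR-100 read 7753. The other 6 read from 18257 (tca-miR-100-5p) to 25601 (api-miR-100). All 4 low probes have targets that end in gug, as do api-miR-100 and cqu-miR-100-5p_L+3 in the high set. The remaining 4 of the high set end in other letters (the sequences above), so the split followed the 3′ end in part only. The low and high spots were not apart on the slide: the probes in rows 83 to 87 of column 12 were aae-miR-100_L+2 (low), aga-miR-100_L+2R-1 (high), ame-miR-100_L+4 (low), api-miR-100_L+3_1ss4GA (low) and cqu-miR-100-5p_L+3 (high).

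**Figure D1:**
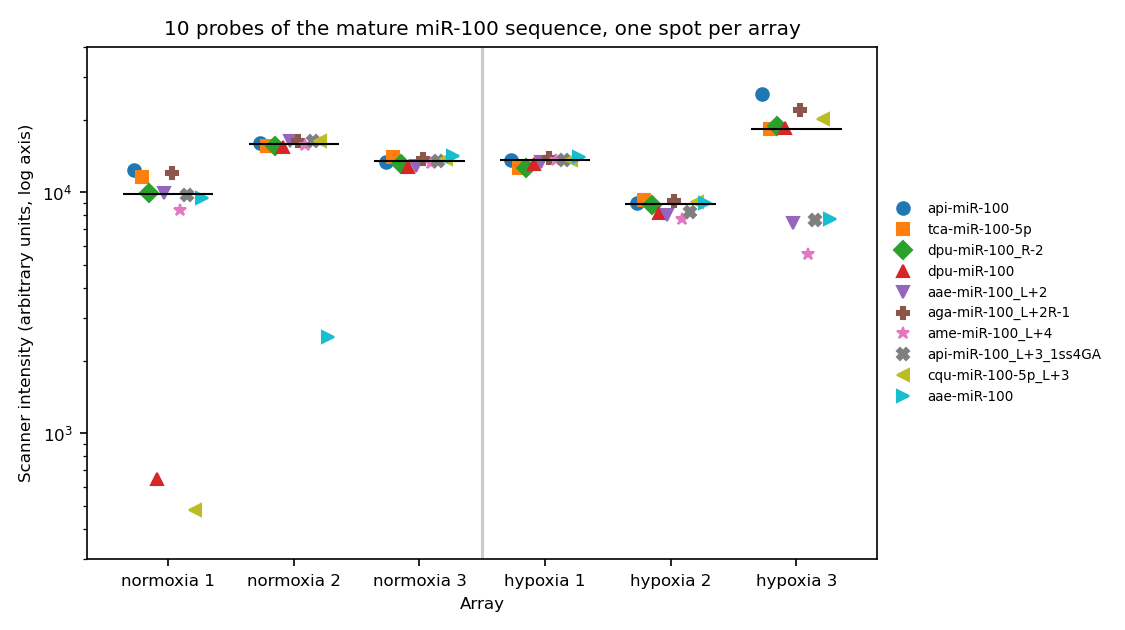
Scanner intensity (log axis, arbitrary units) of the 10 miR-100 probes that hold bases 2 to 21 of aae-miR-100, 1 spot per probe on each of the 6 arrays, with the median as a black bar. The spots lie together on normoxia 3, hypoxia 1 and hypoxia 2, with 2 low spots on normoxia 1, 1 on normoxia 2 and 4 on hypoxia 3.

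The probes with changed bases did not follow the 10. The probe dme-miR-100-5p, with the fly sequence, read 3844, 9394 and 8676 in the normoxia samples, in order of their number, against 12524, 5838 and 2858 in the hypoxia samples. Its background-subtracted signal was 38.3%, 59% and 64.4% of the median of the 10 in normoxia, and 92.3%, 64.9% and 15.1% in hypoxia. The highest and the lowest share were both in hypoxia. With 2 changed bases, dpe-miR-100 read 210, 297 and 210 in normoxia and 1598, 350 and 197 in hypoxia. It was at 0.748%, 0.954% and 0.841% of the median of the 10 in normoxia and at 11%, 2.38% and 0.4% in hypoxia. The other probe with 2 changes, dan-miR-100_R-1_1ss3CG, read 253, 363 and 217 in normoxia and 1109, 482 and 215 in hypoxia. Its share was 1.2%, 1.37% and 0.906% in normoxia and 7.44%, 3.94% and 0.507% in hypoxia. Both shares were high on hypoxia 1 and 2 and lowest on hypoxia 3, the same arrays on which the 3M spots were high and lowest against the 3P spots. The part of that calibration signal in these values was not tested.

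The miR-125 probes were dimmer and less alike. The brightest, ame-miR-125, read 2268, 2209 and 322 in normoxia and 5883, 1892 and 1466 in hypoxia, in the same order. Normoxia 3 was low and hypoxia 1 high, and the groups overlapped. One base shorter than the fly sequence, aae-miR-125-5p_R-1 read 474, 1158 and 650 in normoxia and 3762, 1096 and 223 in hypoxia, so hypoxia held both its highest and its lowest value. The full fly sequence, dme-miR-125-5p, read 174, 300 and 188 in normoxia and 1309, 287 and 143 in hypoxia. It passed the detection limit on 4 of 6 arrays and did not enter the comparison: on normoxia 3 it lay 90.8 above background, where the limit was 94.6, and on hypoxia 3 it lay 23.6 above, where the limit was 77.0.

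These 3 probes do not give the same account of miR-125 across arrays. The signal of aae-miR-125-5p_R-1 was 16%, 48.5% and 239% of that of ame-miR-125 in the normoxia samples and 63.2%, 54.4% and 7.89% in the hypoxia samples. The share of dme-miR-125-5p ran from 1.75% on hypoxia 3 to 39.4% on normoxia 3. Both shares were highest on normoxia 3, where ame-miR-125 was low. All 3 probes read highest on hypoxia 1, where the calibration share was 10.1%, and the part of that share in these values was not tested.

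**Figure D2:**
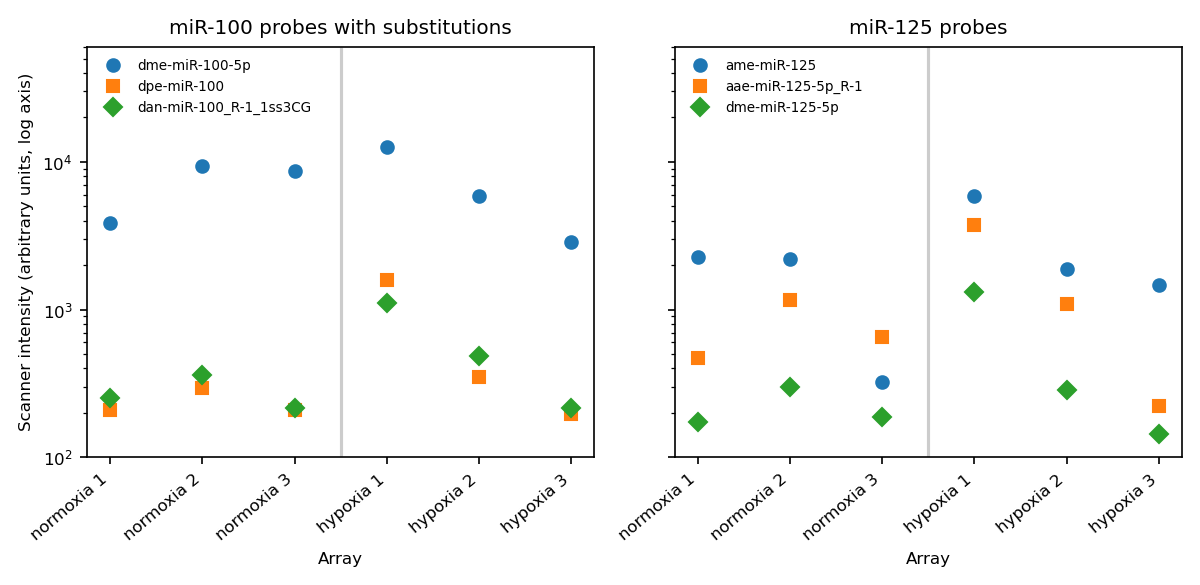
Scanner intensity (log axis, arbitrary units) on each of the 6 arrays of the 3 miR-100 probes with changed bases (left) and of the 3 guide-strand miR-125 probes (right), 1 spot per probe and array. All 6 probes read highest on hypoxia 1, at 12524, 1598, 1109, 5883, 3762 and 1309.

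The other strand could not be measured for either miRNA with the probes on the array. Targets of these probes differ between the species named, also in bases 2 to 8. Their match to the prawn strand was not tested. Of the 6 probes named 3p, 3 were detected on no array and 3 on a single array. The brightest for miR-100, cqu-miR-100-3p, passed the limit on normoxia 2 only, at 68.3 above background, and the brightest for miR-125, dme-miR-125-3p, passed it on hypoxia 2 only, at 30.2. A difference between the oxygen levels in these strands was not detectable with these probes. The last miR-100 probe, ngi-miR-100, is 4 edits from aae-miR-100 and keeps its seed. It lay 13.5, 45.2 and 3.04 above background in normoxia and 135, 17.5 and 179 in hypoxia, and was detected on hypoxia 1 and hypoxia 3 only.

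The comparison of oxygen levels asked whether these miRNAs differ after a day of low oxygen. No probe of either passed the test. Of the 23 probes, 15 entered the fit, 13 for miR-100 and 2 for miR-125, and 0 of the 15 passed at an adjusted p of 0.05 (limma with Benjamini-Hochberg adjustment over all 338 probes, adjusted p = 0.87 to 0.995), where 0% of all 338 passed. At an unadjusted p under 0.05 there were 0 of the 15 and 4.44% of the 338. In 0 of the 15 did the 3 values of one group lie outside those of the other, beside 10.1% of the 338. Changes (hypoxia minus normoxia) lay above 0 for 7 and below 0 for 6 of the 13 miR-100 probes, and above 0 for both miR-125 probes, while 42% of all 338 lay above 0. The median change of the 15 was 0.20 (log2), that of the 10 miR-100 probes with the shared sequence 0.08 and that of all 338 -0.09. The median 95% confidence interval of the 15 reached 1.28 (log2) to either side, so changes of 2-fold remain within the intervals of many of these probes.

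Of the 15 members 4, or 26.7%, were at least 2-fold higher in hypoxia, beside 5.33% of the 338, and 0 were at least 2-fold lower, beside 3.25%. Each of the 4 fell below 2-fold once a single array was left out. For cqu-miR-100-5p_L+3 the log2 values were 9.26, 13.74 and 13.74 in normoxia and 13.72, 13.69 and 14.05 in hypoxia, a change of 1.58 ± 1.23 (SE; limma, adjusted p = 0.87) that came to 0.09 without normoxia 1. The low spot on normoxia 1 sets this value, and the same holds for dpu-miR-100, at 1.38 ± 1.10 and at 0.04 without that array. For dpe-miR-100, with its 2 changed bases, the values were 7.24, 7.32 and 7.87 in normoxia and 10.03, 8.52 and 7.19 in hypoxia, a change of 1.10 ± 0.71 that came to 0.29 without hypoxia 1. For ame-miR-125 they were 11.65, 10.60 and 8.58 in normoxia and 12.27, 11.58 and 10.77 in hypoxia, a change of 1.26 ± 0.84 (95% confidence interval -0.77 to 3.30) that came to 0.41 without normoxia 3.

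A pair of miR-100 probes with no outlying spot had changes near 0. For tca-miR-100-5p the log2 values were 13.78, 13.68 and 13.76 in normoxia and 13.52, 13.72 and 13.71 in hypoxia, with a change of -0.10 (95% confidence interval -0.61 to 0.42). For dpu-miR-100_R-2 the change was -0.03 (-0.54 to 0.49), and its sign turned under 3 other scalings or value tables. Neither interval reaches a 2-fold change. The brightest probe, api-miR-100, was at 0.20 (-0.83 to 1.22) and at -0.25 without hypoxia 3, and aga-miR-100_L+2R-1 was at 0.18 (-0.50 to 0.86) and at -0.05 without it.

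Of the 4 probes that read low on hypoxia 3, 3 had changes below 0, nearer 0 or past it without that array. The change of aae-miR-100_L+2 was -0.45 ± 0.35 (SE) with hypoxia 3 and -0.09 without it. For api-miR-100_L+3_1ss4GA the values were -0.40 ± 0.32 and -0.09, and for ame-miR-100_L+4 they were -0.50 ± 0.47 and 0.02. The probe aae-miR-100, low on normoxia 2 as well, was at 0.66 ± 0.86, at -0.32 without normoxia 2 and at 0.93 without hypoxia 3.

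Without hypoxia 3, 3 members fell under an unadjusted p of 0.05 (limma), beside 18.3% of all 338 in that fit. The change of dan-miR-100_R-1_1ss3CG was 0.76 ± 0.54 (SE) over 6 arrays and 1.46 ± 0.18 without hypoxia 3 (adjusted p = 0.0726), that of dpe-miR-100 1.86 ± 0.52 (adjusted p = 0.163) and that of aae-miR-125-5p_R-1 1.46 ± 0.32 (adjusted p = 0.122). The same 3 probes did so with array weights, in which hypoxia 3 counts least, beside 22.2% of all 338. None passed the adjusted threshold in either. The fit without hypoxia 3 sets normoxia against hypoxia 1 and 2, the arrays with the high 3M signal, so in it oxygen level and that signal cannot be told apart. Over all 6 arrays aae-miR-125-5p_R-1 was at 0.42 ± 0.97. Its log2 values were 9.26, 9.50 and 9.42 in normoxia, and 11.42, 10.47 and 7.54 in hypoxia. The fly-sequence probe dme-miR-100-5p was at -0.20 ± 0.52 and at 0.33 without hypoxia 3.

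**Figure D3:**
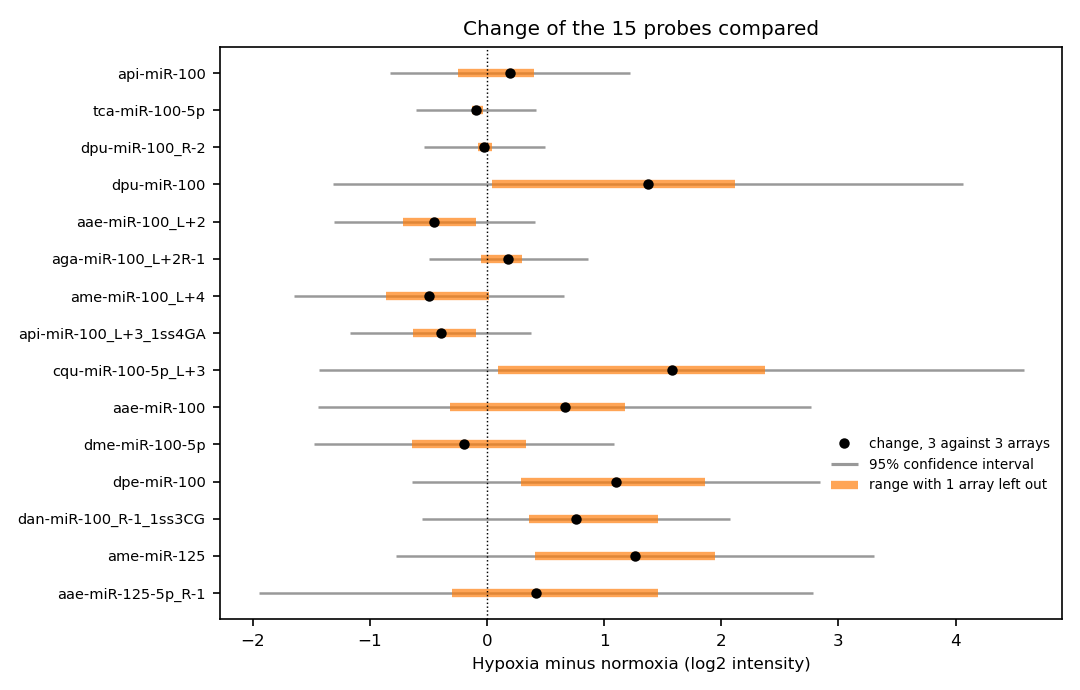
Change in log2 intensity (hypoxia minus normoxia) of the 15 miR-100 and miR-125 probes that entered the comparison. Points are the changes over 3 against 3 arrays, grey lines their 95% confidence intervals and orange bars the range of the change with single arrays left out. All 15 intervals include 0, and dpu-miR-100 and cqu-miR-100-5p_L+3 span the widest ranges.

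To compare the cluster members, the log2 difference between the brightest probe of each was taken on every array, because a level of one probe cannot be set against that of another while its change between oxygen levels can. The difference of ame-miR-125 from api-miR-100 was -2.65, -3.10 and -5.10 in normoxia and -1.42, -2.10 and -4.13 in hypoxia. The groups overlapped. Relative to miR-100, miR-125 was 1.07 ± 1.11 (log2, SE, n = 3 per group) higher in hypoxia, with a p of 0.4 in an exact two-sided permutation test. With 3 against 3 arrays that test cannot go below 0.1. The value was 0.28 without normoxia 3 and 1.80 without hypoxia 3. It was 1.27 with the median of the 10 miR-100 probes in place of api-miR-100, and 0.22 with aae-miR-125-5p_R-1 in place of ame-miR-125, both chosen after seeing the data.

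The third member of the fly cluster, let-7, which promotes the change from larval to adult fates, was set against both in the same way. The brightest let-7 probe, dme-let-7-5p, changed by -0.34 ± 0.33 relative to api-miR-100 (exact permutation p = 0.4), or by 0.01 without hypoxia 3. That value came from quantile normalization. It was -0.09 with 75th percentile scaling and with no scaling, -0.07 with cyclic loess scaling, -0.08 in the authors' value table and -0.13 against the median of the 10 miR-100 probes. Relative to ame-miR-125 the let-7 probe changed by -1.40 ± 1.02 (exact permutation p = 0.2), by -0.57 without normoxia 3 and by -0.56 relative to aae-miR-125-5p_R-1 instead. Adjusted over the 3 pairs, each p was 0.4, so no pair was shown to differ in its change.

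**Figure D4:**
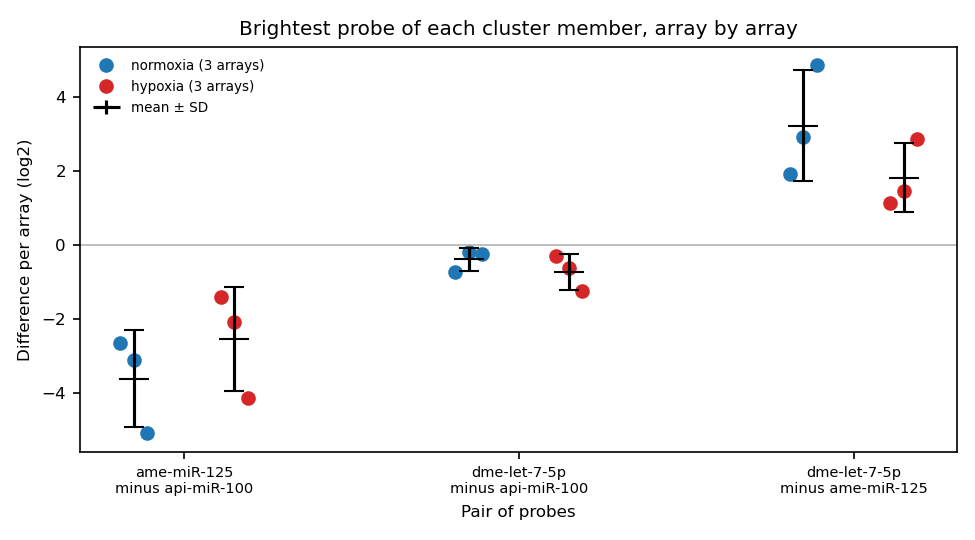
Difference in log2 intensity between the brightest probes of miR-125, miR-100 and let-7 on each array, for 3 normoxia (blue) and 3 hypoxia (red) arrays, with the mean and SD in black. The groups overlap in the first and second pair, and in the third the hypoxia mean is 1.82 beside 3.23 in normoxia, with overlapping values.

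Of the miRNAs linked to developmental timing or to ecdysone in flies, let-7 had 6 of 12 probes in the comparison, with 0 changes above 0 and 6 below, between -0.55 and -0.0013. MiR-34, which ecdysone lowers in flies, had 8 of 13, with 0 above and 8 below. MiR-14, which acts on the ecdysone receptor in flies, had 0 of 5, so it gave no value. None of the let-7 and miR-34 probes passed the adjusted test (limma). Of all 338 probes, 42% had changes above 0 and 195 had changes below 0. Probes that share a miRNA name are not independent readings. MiR-10, a relative of miR-100 in sequence, had 9 of 10 probes in the comparison, 5 above and 4 below 0. All lay within 0.37 of 0 on the log2 scale, and 0 passed. Its brightest probe, tur-miR-10-5p, read 1006, 1660 and 1457 in normoxia and 1692, 906 and 2314 in hypoxia.

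Probes outside these families were ranked by how closely they followed the brightest member over the 6 arrays, as the root mean square difference of their deviations from their own mean. Closest to api-miR-100 of 308 probes were isc-miR-87_R+1, at 0.14 (log2), nvi-miR-190, at 0.14, and api-miR-315_R+3_1ss20AG, at 0.15, where the median over the 308 was 0.64. Each of these was highest on hypoxia 3 and next highest on normoxia 1, as api-miR-100 was. Closest to ame-miR-125 were mja-miR-6489-3p_L-3R-2_1ss19GA, at 0.49, dme-miR-275-3p, at 0.54, and bmo-miR-87, at 0.57, beside a median of 1.31. These were lowest on normoxia 3, as ame-miR-125 was, and their likeness was looser than that of the miR-100 set.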

How the data were processed

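Total RNA of 6 prawn samples was measured on 1-colour (Cy3) miRNA arrays, per the labels' protocols. Per the file headers, the scanner files list a median intensity for each of 3968 spots. Nothing was subtracted from it, since the 1130 empty spots read well above 0. A further deposited table gives intensity after background subtraction and scaling by the authors. Its column medians are 4.37, 4.11 and 6.44 for normoxia and 5.89, 0.04 and 2.95 for hypoxia. Over 151 bright probes it runs parallel to the scanner values (log2 r of at least 0.997 per array), so it is not centred per probe. It was taken as linear, without a test of the slope, and its scaling method stays unknown here. It served as an alternative. Each of the 2546 miRNA probes had 1 spot, so single-spot error cannot be averaged.

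Local background was taken as the median over the 20 closest empty spots. Normexp correction (offset 50) shrinks the changes of dim probes. Spots of controls were removed, quantile normalization was applied between arrays, and values were put on the log2 scale. Probes detected on all 3 arrays of a group (338) were fitted with limma 3.58.1 in R 4.3.3, hypoxia minus normoxia, adjusted over all 338. The procedure was tested on simulated data. Groups came from the sample titles. Differences between probes were tested by exact permutation of the arrays. The number of arrays limits precision.

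The probes named were all members in the fit, the brightest others of each stem and arm, the brightest let-7 and miR-10 probes and the 3 closest followers of each miRNA. Members and lists were chosen with earlier results of these data known. Alternatives covered background, scaling, filters, variance model, array weights, a replicate block and single arrays left out. Figures were drawn with matplotlib 3.10.9.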

Additional observations from a re-analysis of the deposited data

Results flagged for a closer look

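These signals outside the comparison were detected on hypoxia arrays and on no normoxia array, or exceeded all 3 normoxia arrays. The probe ngi-miR-100 was detected on no normoxia array and lay 134.8 above background on hypoxia 1 and 178.8 on hypoxia 3. On hypoxia 2 it lay 17.52 above background, less than on normoxia 2 (45.19). The probe dme-miR-125-3p, detected on no normoxia array, lay 30.19 above background on hypoxia 2, the array with the lowest detection limit (27.8). It was brighter on normoxia 2, at 42.6, but under that array's limit of 67.6. The reverse also occurred: cqu-miR-100-3p (68.27 above background) and cqu-miR-125-3p (76.34) were detected on normoxia 2 only. How many of all 2546 probes had either pattern was not counted. The calibration spots 3M gave 10.1% of the 3P signal on hypoxia 1 and 7.32% on hypoxia 2. No normoxia array exceeded 2.89%. Dixon's test for outlying values was not run on groups of 3 arrays.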

How the results depend on the processing

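None of the 15 probes passed under any alternative (limma, smallest adjusted p of a member 0.0726), and leaving out single arrays gave 0 to 1 changed probes among 338, the 1 without hypoxia 3. With array weights 3 of the 15 were under an unadjusted p of 0.05, beside 22.2% of all 338. One of the 15 members did so in each of 3 more fits, beside 11, 17 and 15 of all 338 in the order below. These were ame-miR-125 with a replicate block (1.26 ± 0.44, SE, limma adjusted p = 0.991) and without normoxia 1 (1.95 ± 0.76, limma adjusted p = 0.757), and dan-miR-100_R-1_1ss3CG with cyclic loess scaling (1.09 ± 0.36, limma adjusted p = 0.738). Of the 15 changes, 8 kept their sign under all settings that gave a value, and all 15 moved by more than 1.5 times when some single array was left out. With single arrays left out the range was -0.25 to 0.40 for api-miR-100, -0.64 to 0.33 for dme-miR-100-5p, -0.08 to 0.04 for dpu-miR-100_R-2, -0.05 to 0.30 for aga-miR-100_L+2R-1, -0.86 to 0.02 for ame-miR-100_L+4, -0.32 to 1.18 for aae-miR-100 and -0.30 to 1.46 for aae-miR-125-5p_R-1. Among other settings, array weights turned api-miR-100 to -0.06, dme-miR-100-5p to 0.05 and aga-miR-100_L+2R-1 to -0.01, cyclic loess scaling also turned the last to -0.01, and dpu-miR-100_R-2 became 0.07 with 75th percentile scaling, 0.02 with no scaling and 0.03 in the authors' value table. The cause was not tested. The change of let-7 relative to miR-100 ran from -0.52 to 0.01 with single arrays left out and from -0.09 to -0.07 with other scalings or the authors' value table. Equal replicate numbers did not deviate together (r across probes -0.25, -0.274 and -0.0586). Whether equal numbers mark samples handled together is not settled by these values. With a replicate block 0 probes were called, and 11 instead of 15 fell under an unadjusted p of 0.05 (limma). Paired by replicate number, the difference in change between miR-125 and miR-100 was 1.07 (exact sign-flip test, p = 0.25, the smallest that 3 pairs allow). Signal over background limits what can be said of miR-125, whose full fly sequence was under the limit on 2 arrays.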
